A study of Mus musculus with 4 samples.

Results

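The genes of cholesterol synthesis, its control by SREBP2, and sterol transport were followed in cultured mouse pancreatic islets, which hold the insulin and glucagon cells, after treatment with a glucokinase activator. The set holds 30 genes, chosen by name from the 26265 genes of the array. Earlier results of these data were known when the set was chosen, and all 30 genes were measured. Each group consisted of 2 samples of islets from C57BL/6 mice aged 8 weeks, cultured for 24 h in RPMI1640 medium with 5.6 mM glucose. The treated group received 30 µM GKA, a small molecule that raises the activity of glucokinase, the glucose-phosphorylating enzyme of the beta cell, and the vehicle group received DMSO. No label ties the 2 samples of a group to separate mice or cultures. The p-values therefore cover the spread between these samples alone, and that spread may be technical. Values are log2 signals of a 1-colour Agilent array relative to the 75th percentile of each array, a change is the mean with GKA minus the mean with vehicle on that scale, and its error is the standard error (SE) from limma.

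Cholesterol is built from acetyl-CoA through mevalonate, farnesyl diphosphate and squalene, and the enzymes of this route are encoded by targets of the transcription factor SREBP2. SREBP2 is held in the endoplasmic reticulum by SCAP and the INSIG proteins when sterols are plentiful and is released to the nucleus when they run low. Excess sterol acts in the opposite direction through the LXR receptors, which raise the cholesterol exporters ABCA1 and ABCG1. In beta cells the cholesterol content of membranes bears on insulin secretion.

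Promoter sequences show what the synthesis genes share besides their place in the pathway. RefSeq promoters of build GRCm38.p6, from 250 bases before to 50 after a start site, were found for 24 of the 30 genes, in 31 entries. The CCAAT box, bound by the factor NF-Y that works beside SREBP, was searched as CCAAT on both strands. It lay in 15 of 16 mevalonate and sterol synthesis genes with an entry, counting a gene if any of its entries matched. No such share was computed over all genes. By entry it lay in 61.3% of the 31 entries of the whole set, against 37.4% of all 32851 promoters of that length. The sterol regulatory element was searched as TCACNCCAC on both strands, a strict form, and lay only in the entry of Hmgcs1, against 1.24% of all promoters. The E-box CACGTG, which SREBP proteins can also bind, lay in 22.6% of the entries and in 7.15% of all promoters, but in only 3 of the 16 synthesis genes. Its 7 entries came from 6 genes, because the entries of Scap overlap and hold the same site. The GC box GGGCGGG, a site of the factor SP1, lay in 51.6% and 25.6%, and in 10 of the 16 synthesis genes. Each motif was counted separately, matches of different motifs may share bases, and a match describes the sequence and is not a measured binding site.

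A stretch of 100 bases upstream of the start site is shown for the 3 genes called higher with a promoter entry, for Srebf2, which encodes SREBP2, and for Hmgcs1, which held the sterol element. Each is written 5′ to 3′ on the strand of the gene, in lower case, with matches to CCAAT or its complement ATTGG and to TCACNCCAC in capitals.
Pmvk, chr3:89454357-89454456, plus strand: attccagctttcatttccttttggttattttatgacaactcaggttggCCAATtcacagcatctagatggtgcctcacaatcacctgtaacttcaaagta
Cyp51, chr5:4104698-4104797, minus strand: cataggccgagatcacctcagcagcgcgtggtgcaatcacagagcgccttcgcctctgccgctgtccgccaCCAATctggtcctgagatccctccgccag
Tm7sf2, chr19:6067851-6067950, minus strand: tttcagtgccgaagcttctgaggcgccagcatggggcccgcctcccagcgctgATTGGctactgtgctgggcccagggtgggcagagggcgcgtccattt
Srebf2, chr15:82147086-82147185, plus strand: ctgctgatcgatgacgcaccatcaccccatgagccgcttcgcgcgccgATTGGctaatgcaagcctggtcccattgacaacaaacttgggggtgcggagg
Hmgcs1, chr13:119690168-119690267, plus strand: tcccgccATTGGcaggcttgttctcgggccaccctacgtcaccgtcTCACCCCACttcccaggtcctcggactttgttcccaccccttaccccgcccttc
The CCAAT match began 136 bases before the start site in Pmvk, 29 in Cyp51, 47 in Tm7sf2 and 135 in Srebf2. The RNA of the 3 called genes shown rose with GKA. Hmgcs1, the only one of the 24 genes with an entry that matched the strict sterol element, had a change near 0. The called genes Sqle and Fdps had no entry, and looser forms of the element were not searched. Whether these matches bear on the changes was not tested.

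The arrays were of like quality. Between 23520 and 25056 of the 39429 non-control probes per array were well above background, and all 30 sterol genes were well above background on all 4 arrays. Before scaling, the percentile used was an intensity of 751 and 755 for vehicle and of 557 and 598 for GKA, so directions are relative to this scaling. The 13 islet endocrine markers looked up, insulin and glucagon genes among them, were all well above background on every array. Of these 13, 4 were higher with GKA and 0 lower at an adjusted p under 0.05, beside 9.11% and 8.01% of all genes, Chgb (1.00 ± 0.12) and Mafa (1.06 ± 0.14) with the smallest p. Their summed signal relative to the percentile was 2782 and 2771 with vehicle and 3652 and 3490 with GKA, and its part in the changes of the sterol genes was not tested. All arrays shared 1 slide, with vehicle in positions 1 and 2 and GKA in 3 and 4, which means that slide position cannot be told apart from treatment. In bulk samples, fewer cells of a type and less RNA per cell cannot be told apart either.

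With GKA, 4 of the 30 genes rose, namely Pmvk, Sqle, Cyp51 and Tm7sf2, 1 fell, Fdps, and 25 did not pass at an adjusted p under 0.05 (limma, Benjamini-Hochberg over 17178 genes). That is 16.7% of the set, against 17.1% of all genes tested that passed in either direction, 9.11% higher and 8.01% lower. The share called was therefore near the background. Over all genes, 1565 calls were higher and 1376 lower, which became 1381 and 1848 with median scaling. Without scaling between arrays they were 750 and 7654, with 0 sterol genes higher and 12 lower. With scaling to Agilent's E1A spike-in control RNAs they were 434 and 7611, with 0 sterol genes higher and 9 lower. The 5 called changes were of similar size, between 1.47-fold and 1.57-fold up and 0.662-fold for Fdps, all under 2-fold. The median change over the 30 genes was 0.08, beside -0.01 over all genes tested. Both arrays of one group lay beyond both arrays of the other in 14 genes on the higher side and 6 on the lower side, 66.7% of the set against 65.9% of all genes, of which 32.4% lay on the higher and 33.5% on the lower side. The change exceeded the larger gap between replicates in 14 of the 30 genes, 46.7% against 54.7% of all genes.

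**Figure D1:**
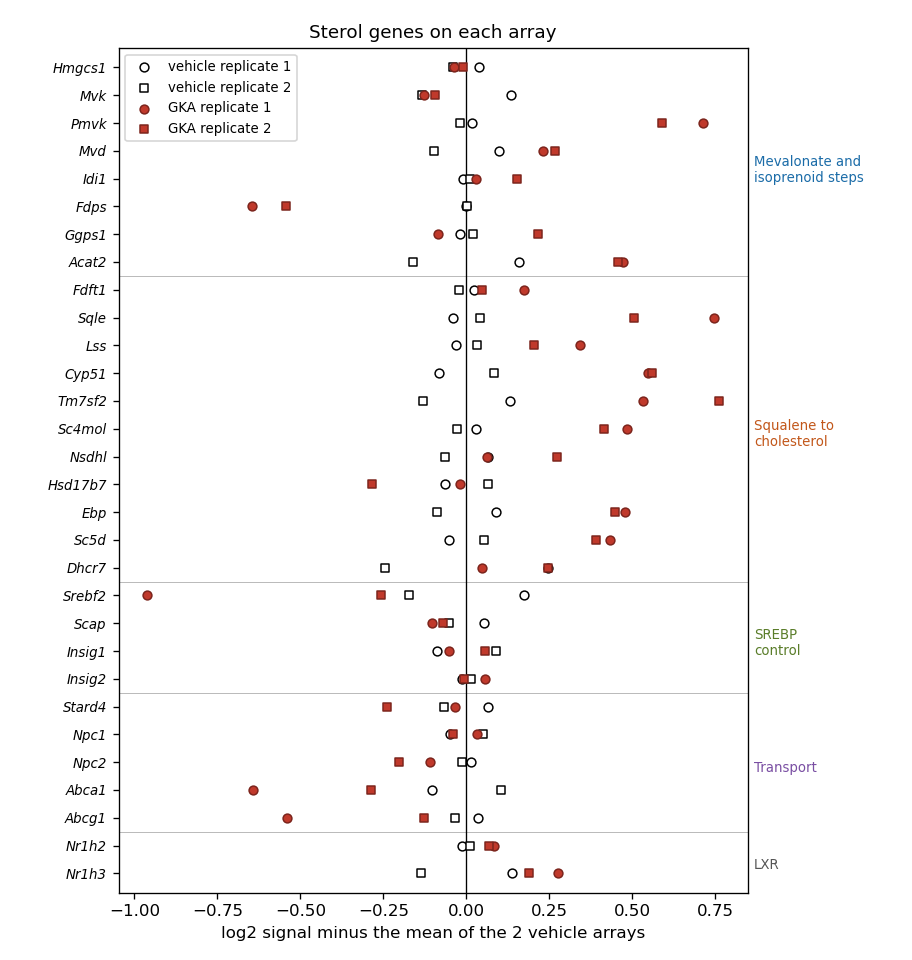
Log2 signal of each of the 30 sterol genes on each array, minus the mean of the 2 vehicle arrays; open symbols are vehicle, filled symbols GKA, circles replicate 1 and squares replicate 2. The GKA symbols of 10 of the 11 genes from squalene to cholesterol lie right of 0 on average (6 without scaling, 3 with spike-in scaling), the GKA symbols of Fdps, Srebf2 and Abca1 lie furthest left, and those of Srebf2 lie far from each other.

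Of the 8 mevalonate and isoprenoid genes, Pmvk was higher, Fdps was lower and 6 did not pass. That is 12.5% higher and 12.5% lower, beside 9.11% and 8.01% of all genes, and it rests on 1 gene in each direction. Pmvk encodes phosphomevalonate kinase, which phosphorylates mevalonate phosphate. Its log2 signal was 3.86 and 3.82 with vehicle and 4.55 and 4.43 with GKA, so both GKA arrays lay above both vehicle arrays by far more than replicates differed. The change was 0.65 ± 0.12 (adjusted p = 0.0250 in limma, probe at mm9 chr3:89272867-89272926), and a further probe of the gene gave 0.66 ± 0.12. Without scaling between arrays the change was 0.27 (adjusted p = 0.0951), and with spike-in scaling it was 0.10 (adjusted p = 0.744).

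Fdps encodes farnesyl diphosphate synthase, which makes the branch-point intermediate for sterols, ubiquinone and prenyl groups. Its signal was 3.60 and 3.61 with vehicle and 2.96 and 3.06 with GKA, so the groups were well apart and the vehicle arrays nearly equal. The change was -0.59 ± 0.11 (adjusted p = 0.0288 in limma, probe at mm9 chr3:88897549-88897608). It lay below 0 under every scaling tried, and Fdps was the only one of the 30 genes called lower under the scaling reported here.

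The HMG-CoA synthase Hmgcs1 stood at 2.37 and 2.29 with vehicle and 2.29 and 2.32 with GKA. Its groups overlapped, and the change of -0.02 had a 95% interval from -0.31 to 0.26. The isopentenyl diphosphate isomerase Idi1 stood at 0.10 and 0.12 with vehicle and 0.14 and 0.26 with GKA. Its GKA arrays were above the vehicle arrays by no more than GKA replicates differed, with a change of 0.09 (interval -0.20 to 0.38). Hmgcs1 and Idi1 are both SREBP2 targets, and both intervals hold 0. The interval of Pmvk ran from 0.36 to 0.94, above that of Hmgcs1 and overlapping that of Idi1. The difference from Pmvk was not tested.

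Of the other mevalonate genes, the cytosolic thiolase Acat2, which joins acetyl-CoA units, had a change of 0.46 ± 0.15 (adjusted p = 0.0873), and it passed with normexp and the 75th percentile (0.40, adjusted p = 0.0312). The mevalonate diphosphate decarboxylase Mvd had 0.25 ± 0.13, the mevalonate kinase Mvk -0.11 ± 0.14 and the geranylgeranyl diphosphate synthase Ggps1 0.07 ± 0.14. Mvk gave -0.11 on each of its probes, while Ggps1 gave 0.07 and -0.08, so no direction can be read for Ggps1.

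Of the genes from squalene to cholesterol, more lay above vehicle than below. Of 11 measured, 3 rose, Sqle, Cyp51 and Tm7sf2, 0 fell and 8 did not pass, 27.3% against 9.11% of all genes called higher, with a median change of 0.41 beside -0.01 over all genes. The change was above 0 in 10 of the 11, although in 6 without scaling between arrays and in 3 with spike-in scaling. The median change over all genes was -0.40 without scaling and -0.56 with spike-in scaling. Both settings move every gene by 1 amount. These counts describe the list and no test was made over it.

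Sqle encodes squalene epoxidase, a rate-limiting enzyme of the later pathway. Its signal was 4.43 and 4.52 with vehicle and 5.22 and 4.98 with GKA, with GKA replicate 1 the highest and both GKA arrays above both vehicle arrays. The change was 0.63 ± 0.13 (adjusted p = 0.0369 in limma, probe at mm9 chr15:59162688-59162747). Without scaling it was 0.24 (adjusted p = 0.146) and with spike-in scaling 0.08 (adjusted p = 0.803).

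Cyp51 encodes the lanosterol demethylase, the cytochrome P450 of sterol synthesis. Its signal was -2.34 and -2.17 with vehicle and -1.71 and -1.70 with GKA, so the GKA arrays were nearly equal and above both vehicle arrays. The change was 0.55 ± 0.12 (adjusted p = 0.0383 in limma, probe at mm9 chr5:4081471-4081530). Without scaling it was 0.17 (adjusted p = 0.302) and with spike-in scaling 0.01 (adjusted p = 0.985).

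Tm7sf2 encodes a sterol reductase of the endoplasmic reticulum that acts just after the CYP51 step. Its signal was 0.33 and 0.07 with vehicle and 0.73 and 0.96 with GKA, so replicates lay further apart than for Pmvk, and the groups still did not overlap. The change was 0.65 ± 0.15 (adjusted p = 0.0449 in limma, probe at mm9 chr19:6062882-6062941). A dimmer probe of the gene gave 0.56 ± 0.18 (adjusted p = 0.0946 over all kept probes), and the gene did not pass with median scaling (adjusted p = 0.0553) or with the mean of its probes (adjusted p = 0.0626). It was 0.26 without scaling (adjusted p = 0.236) and 0.10 with spike-in scaling (adjusted p = 0.755).

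Another 3 genes of the same stretch had changes of over 0.4 that fell short of the threshold. The methyl sterol oxidase Sc4mol (now Msmo1), which acts on the product of those steps, had 0.45 ± 0.11 (adjusted p = 0.0518). The sterol isomerase Ebp had 0.46 ± 0.12 (adjusted p = 0.0581) and the sterol desaturase Sc5d 0.41 ± 0.12 (adjusted p = 0.0655). In all 3 both GKA arrays lay above both vehicle arrays, which also held for 32.4% of all genes. Their 95% intervals, from 0.16 to 0.73, 0.15 to 0.77 and 0.12 to 0.70, left out 0 before adjustment over all genes. With spike-in scaling the 3 changes lay below 0, at -0.10, -0.08 and -0.13. Sc4mol and Ebp passed when genes had to be well above background on all 4 arrays (adjusted p = 0.0415 and 0.0462) or with quantile normalization (adjusted p = 0.0415 and 0.0470). With normexp background correction and the 75th percentile all 3 passed (adjusted p = 0.0212, 0.0228 and 0.0298).

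The remaining genes of the branch had smaller changes. The lanosterol synthase Lss had 0.27 ± 0.12 (adjusted p = 0.166), and passed with normexp and quantile normalization (0.31, adjusted p = 0.0457). The sterol dehydrogenase Nsdhl had 0.17 ± 0.13 and the squalene synthase Fdft1 0.11 ± 0.12. Dhcr7, the reductase that yields cholesterol, stood at -1.76 and -2.25 with vehicle and -1.96 and -1.76 with GKA. GKA replicate 2 matched vehicle replicate 1 and GKA replicate 1 lay between the vehicle arrays, and the change was 0.15 ± 0.20. Hsd17b7, a reductase of sterol ketones, was the only gene of the branch below 0 under this scaling, at -0.15 ± 0.14, and its dimmer probe gave 0.02.

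**Figure D2:**
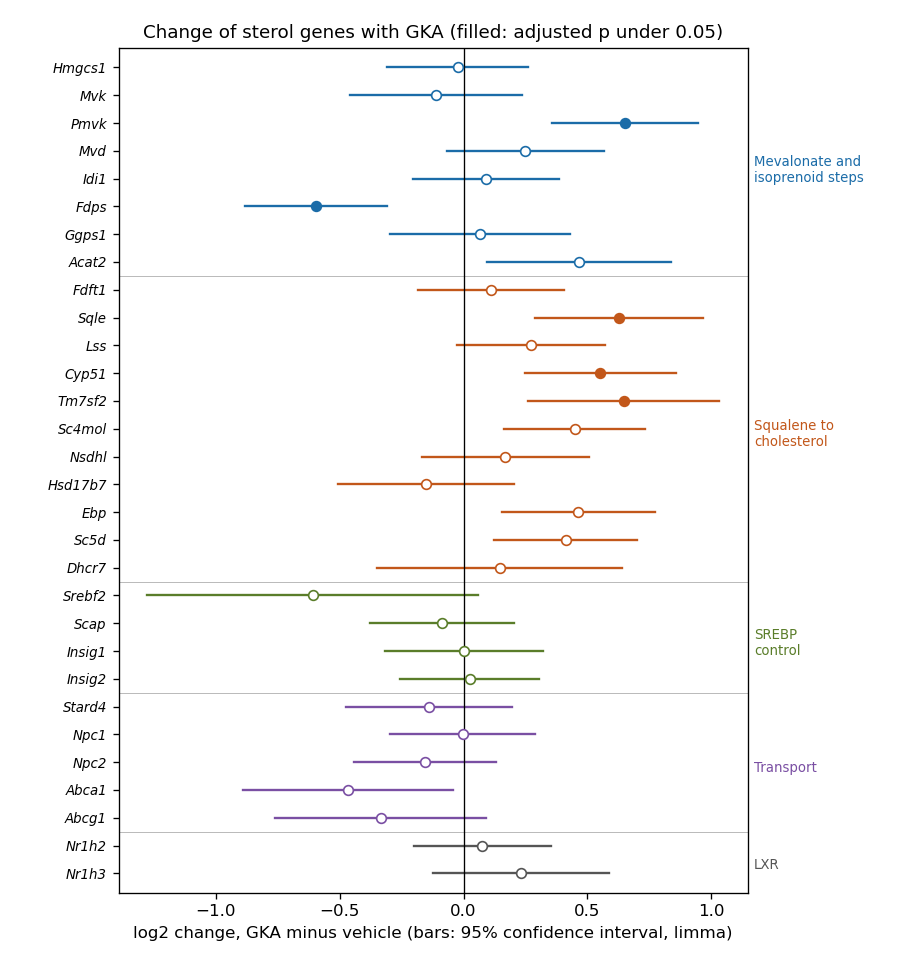
Change of each sterol gene with GKA on the log2 scale, with its 95% confidence interval from limma; filled points passed at an adjusted p under 0.05. Filled points are Pmvk, Sqle, Cyp51 and Tm7sf2 on the right, between 0.55 and 0.65, and Fdps on the left at -0.59, and the interval of Srebf2 is the widest.

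None of the 4 genes of SREBP control passed in limma, beside 17.1% of all genes, and 0 had an unadjusted p under 0.05. With so few genes, a count of 0 cannot be told from that share. Srebf2 stood at -0.80 and -1.15 with vehicle and -1.93 and -1.23 with GKA. GKA replicate 1 was the lowest array and GKA replicate 2 lay close to vehicle replicate 2, so the groups were apart by little, and the change of -0.61 ± 0.26 (adjusted p = 0.166) carried an interval from -1.28 to 0.06. Its value was -0.26 without GKA replicate 1 and -0.96 without GKA replicate 2, and its dimmer probe gave -0.25 ± 0.30. Without scaling between arrays and with spike-in scaling Srebf2 passed in limma, at -0.99 (adjusted p = 0.0393) and -1.16 (adjusted p = 0.000211). In these settings 7654 and 7611 of 17178 genes were called lower, and the median change over all genes was -0.40 and -0.56. With spike-in scaling limma gave all 30 genes the same SE, 0.27, whatever the gap between their own replicates.

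Scap, the escort that carries SREBP2 to the Golgi, stood at 3.38 and 3.28 with vehicle and 3.23 and 3.26 with GKA, a change of -0.09 ± 0.11. Insig1, which retains SCAP and is itself an SREBP target, stood at -1.02 and -0.84 with vehicle and -0.98 and -0.87 with GKA. The groups of Insig1 overlapped fully, and its change of 0.00 had an interval from -0.32 to 0.32. Insig2, which retains SCAP too, stood at 1.87 and 1.89 with vehicle and 1.94 and 1.87 with GKA. Its change was 0.02 ± 0.11 on the brighter probe and -0.24 ± 0.13 on the other, which shows no common direction.

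Of the 5 transport genes, 0 passed in limma in either direction, beside 17.1% of all genes. A list this short cannot be told from that share. For 1 of them, Abca1, the unadjusted p was under 0.05. All 5 had changes below 0 as scaled here, with a median of -0.16, but Npc1 turned above 0 with normexp and the 75th percentile (0.04), without vehicle replicate 2 (0.05) and without GKA replicate 2 (0.03), and Stard4 did with the mean of its probes (0.08). Abca1, which moves cholesterol out of the cell to apolipoprotein, stood at 1.14 and 1.35 with vehicle and 0.60 and 0.96 with GKA. Both GKA arrays were lower, GKA replicate 1 the more so, and the change was -0.47 ± 0.17 (adjusted p = 0.113, interval -0.89 to -0.04). Abcg1, an exporter to lipoprotein particles, stood at 3.39 and 3.32 with vehicle and 2.81 and 3.23 with GKA. GKA replicate 2 lay near the vehicle arrays, and the change was -0.33 ± 0.17 (adjusted p = 0.217), or -0.13 without GKA replicate 1. With normexp background correction and the 75th percentile, both exporters passed, at -0.45 (adjusted p = 0.0423) and -0.40 (adjusted p = 0.0358), while Npc1, Npc2 and Stard4 did not. Without scaling all 5 transport genes were called lower, and with spike-in scaling 4 were, all but Npc1. In these settings, which lower every gene alike, 7654 and 7611 of 17178 genes were called lower.

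Npc2 and Npc1, which release cholesterol from the lysosome, had changes of -0.16 ± 0.11 and 0.00 ± 0.12, with an interval for Npc1 from -0.30 to 0.29. Stard4, a carrier of cholesterol between membranes, had -0.14 ± 0.13, and its dimmer probe gave 0.30 ± 0.21. Neither LXR gene passed or had an unadjusted p under 0.05 in limma, beside 17.1% of all genes that passed. The receptor gene Nr1h2, which encodes LXR-beta, stood at 2.93 and 2.95 with vehicle and 3.02 and 3.01 with GKA. Its GKA arrays were both slightly higher, with a change of 0.08 ± 0.11. Nr1h3, which encodes LXR-alpha, stood at 0.92 and 0.65 with vehicle and 1.06 and 0.98 with GKA, a change of 0.23 ± 0.14 (adjusted p = 0.291) and of 0.21 on its other probe. The vehicle arrays of Nr1h3 lay further apart than its GKA arrays. Without scaling both LXR genes stood below 0, at -0.31 and -0.15.

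Macrophages, which islets contain, also express the exporters and LXR-alpha, and leukocyte markers moved in both directions in these samples. Of 20 leukocyte markers measured, 7 were lower and 2 higher at an adjusted p under 0.05, with a median of -0.58, beside 8.01% lower and 9.11% higher over all genes. The decreases with the smallest p were in the lysozyme genes Lyz1 (-1.63 ± 0.20, adjusted p = 0.0118) and Lyz2 (-2.14 ± 0.30, adjusted p = 0.0144), and Mrc1 (0.96 ± 0.12) and Cd14 (1.32 ± 0.27) were higher. Of the 20, 15 had changes below 0 and 5 above 0. Those above 0 included the macrophage markers Csf1r (0.08 ± 0.15), Cd68 (0.39 ± 0.19) and Itgam (0.41 ± 0.13), which did not pass. The summed signal of the list, on a linear scale relative to the 75th percentile, was 24.8 and 23.9 for vehicle and 19.3 and 17.0 for GKA. Of the 20, 18 were well above background on all 4 arrays, and the other two, Mrc1 and Lyz2, on 3. The part of these cells in the values of Abca1, Abcg1, Npc2 and Nr1h3 was not tested.

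Probes that agree or disagree bear on how far a single gene can be read. The 30 genes carried 41 probes, 39 of which were bright enough to keep, and 11 genes had 2 probes. Pmvk, Tm7sf2, Nr1h3 and Mvk gave like values on both. Stard4, Hsd17b7, Ggps1 and Insig2 gave opposite signs, and none of these 4 genes passed on either probe. Fdft1 gave 0.11 on its bright probe and 0.56 on a probe that was well above background on no array, and Nsdhl gave 0.17 and 0.29 on probes of which the dimmer was not kept.

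**Figure D3:**
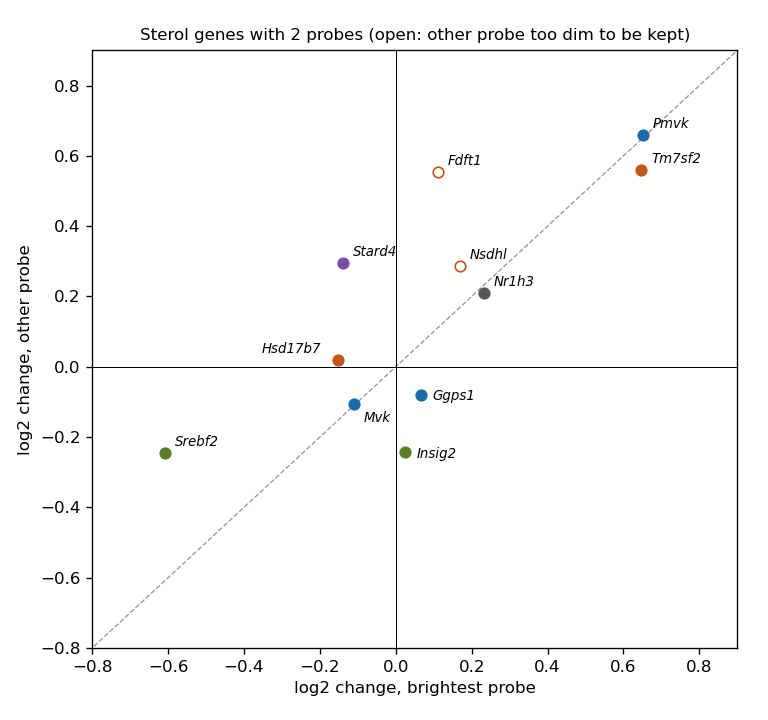
Change with GKA on the log2 scale for the 11 sterol genes with 2 probes, the brightest probe on the horizontal axis and the other on the vertical axis; the dashed line marks equal values and open points a second probe too dim to keep. Pmvk at 0.65 and 0.66 and Tm7sf2 at 0.65 and 0.56 lie near the line at the upper right, while Stard4, Hsd17b7, Ggps1 and Insig2 lie in quadrants of opposite sign.

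The 5 calls each rest on 2 arrays per group. Without GKA replicate 1 or GKA replicate 2, none of the 5 genes passed, with adjusted p between 0.0848 for Sqle and 0.181 for Tm7sf2. Without vehicle replicate 1, Tm7sf2 passed alone (adjusted p = 0.0487), and without vehicle replicate 2, Cyp51 passed alone (adjusted p = 0.0456). The changes themselves moved less, between 0.59 and 0.71 for Pmvk, 0.51 and 0.75 for Sqle, 0.47 and 0.63 for Cyp51, 0.52 and 0.78 for Tm7sf2, and -0.65 and -0.54 for Fdps. With no filter on dim probes none of the 5 passed, with adjusted p from 0.111 for Pmvk to 0.145 for Tm7sf2.

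Other genes of sterol metabolism were listed by function. Of 41 tested, 5 rose, 4 fell and 32 did not pass, with a median of -0.07. That is 12.2% higher and 9.76% lower, near the 9.11% and 8.01% of all genes. Adjusted p-values of the 9 ran from 0.00493 to 0.0414. Those that rose were the ubiquitin ligase Syvn1 of the endoplasmic reticulum (0.95 ± 0.13), Soat1, which esterifies cholesterol for storage (0.84 ± 0.11), Dhdds, which makes dolichol from farnesyl diphosphate (0.66 ± 0.12), and Nceh1, a cholesteryl ester hydrolase (0.53 ± 0.11). The oxysterol-binding protein gene Osbp (0.78 ± 0.17), the last of the 5, was named after its value was seen. Those that fell were the sterol carrier Stard5 (-1.61 ± 0.12), the Golgi protein Paqr3, known to tether SCAP (-1.26 ± 0.14), the cholesterol hydroxylase Ch25h (-1.27 ± 0.27) and Tmem97, which binds NPC1 (-0.69 ± 0.16). Stard5 stood at 0.50 and 0.34 with vehicle and -1.14 and -1.24 with GKA, a wider gap than for any of the 30 genes.

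Genes of fatty acid synthesis that answer to the related factor SREBP1 were set beside these. Of 17 tested, 1 rose, Thrsp, a lipogenic regulator (1.92 ± 0.11, adjusted p = 0.00341), 0 fell and 16 did not pass, 5.88% called against 17.1% of all genes. Srebf1, which encodes SREBP1, had a change of 0.50 ± 0.16 (adjusted p = 0.0894), and the fatty acid synthase Fasn had 0.38 ± 0.14 (adjusted p = 0.123). The median over this list was 0.12.

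**Figure D4:**
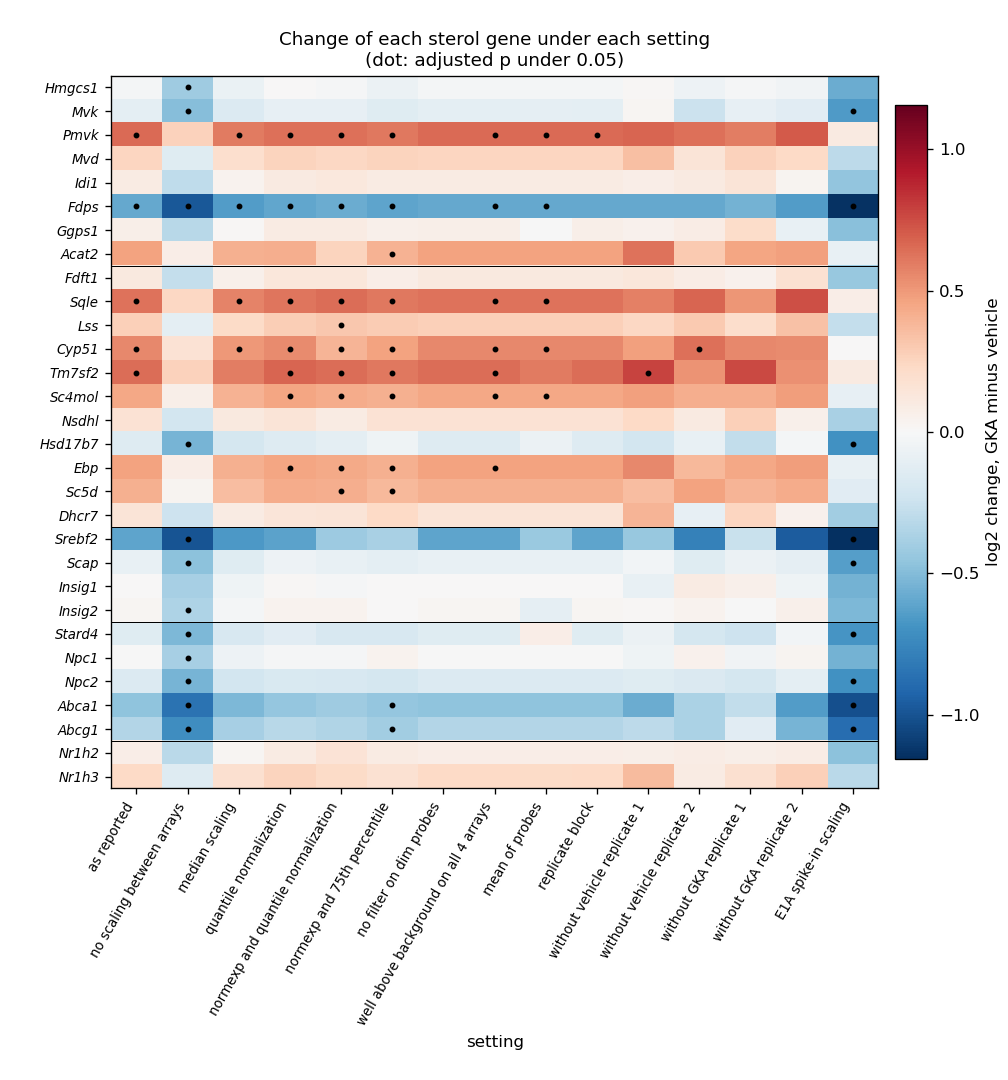
Change of each sterol gene with GKA, on the log2 scale as colour, for the values as reported and 14 alternative settings; a dot marks an adjusted p under 0.05. Fdps stays below 0 in every column. Pmvk, Sqle, Cyp51 and Tm7sf2 have no dot without scaling or with spike-in scaling, where they stand at 0.10, 0.08, 0.01 and 0.10 with an SE of 0.27 in the latter and cannot be told from 0. Of the 30 genes, 11 change sign without scaling and 15 with spike-in scaling.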

How the data were processed

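Islets of 4 samples were hybridised to 1-colour Agilent arrays, 1 array each. Intensity values were made by the authors with Agilent Feature Extraction, version 10.7.3.1 per the file headers and 9.1 per the submitters' processing notes, as background-subtracted, detrended spot signals not scaled between arrays. The authors' deposited table, used for gene names and probe positions on build mm9, holds 1 intensity per group and the ratio of GKA over control. Its control intensities equalled the mean of the 2 arrays within 0.1% for all probes with 1 spot.

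Log2 intensities minus each array's 75th percentile over probes were fitted with limma version 3.58.1 in R version 4.3.3 (lmFit, eBayes; two-sided; Benjamini-Hochberg; 2 residual and 3.33 prior degrees of freedom). Control spots and outlier spots were left out, and 0 spots were saturated. Of 39429 probes, 24480 were well above background on both arrays of a group and kept. The brightest kept probe stood for each gene. An exact permutation test of 4 arrays cannot give a p below 0.333 and was not used. The fit was also run on simulated data, with noise drawn from its own variance model and changes of 2-fold or more. That run does not bear on the smaller changes called here.

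Every gene of the set is named, with per-array values for those called and for a fixed group of regulators, targets and exporters. Up to 4 called genes per direction were named from each other pathway list, and up to 2 from a marker list. The genes and lists were chosen with earlier results of these data known. The array files hold median spot signals, so normexp was run on those. Some genes of the pathway are not reported here. The number of arrays, 4, limits the precision.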

Additional observations from a re-analysis of the deposited data

How the results depend on the processing

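The 2941 genes called became 8404 without scaling, 8045 with scaling to the E1A spike-ins (chosen after seeing the data), 5053 with normexp and the 75th percentile, 223 without the filter on dim probes, 1916 with the replicate block, and 533 to 2835 with 1 sample left out. The 4 sterol genes called higher became 8 with normexp and either quantile normalization or the 75th percentile. In those settings 1962 and 2999 of 17178 genes were called higher, beside 1565 as reported. The sterol genes called higher were 1 with the replicate block, and 0 without scaling, with spike-in scaling or without the filter. The 1 called lower became 12 without scaling, 9 with spike-in scaling, 3 with normexp and the 75th percentile, and 0 without the filter, with the replicate block or with any 1 sample left out. At an unadjusted p under 0.05, limma gave 9 sterol genes without the filter and 10 with the block. The share of all genes under that threshold was not counted, so these counts have no background and cannot be read as a result. The median of 0.08 became -0.30 without scaling and -0.46 with spike-in scaling, and ran from 0.05 to 0.11 with 1 sample left out.

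The labels give both groups the numbers 1 and 2 and do not pair them. Deviations of same-numbered samples correlated at 0.08 over 17178 genes, and with the block Pmvk alone kept its call (adjusted p = 0.0466), while Fdps (0.0517), Cyp51 (0.0593), Sqle (0.0638) and Tm7sf2 (0.0805) did not.

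Signs turned as follows. Without scaling, Mvd stood at -0.14, Idi1 at -0.29, Ggps1 at -0.32, Fdft1 at -0.27, Lss at -0.11, Nsdhl at -0.22, Dhcr7 at -0.24, Insig1 at -0.38, Insig2 at -0.36, Nr1h2 at -0.31 and Nr1h3 at -0.15. With spike-in scaling, Mvd stood at -0.30, Idi1 at -0.46, Ggps1 at -0.48, Acat2 at -0.0816, Fdft1 at -0.43, Lss at -0.27, Sc4mol at -0.10, Nsdhl at -0.38, Ebp at -0.0826, Sc5d at -0.13, Dhcr7 at -0.40, Insig1 at -0.54, Insig2 at -0.52, Nr1h2 at -0.47 and Nr1h3 at -0.31. By construction, these 2 settings move every gene by 1 amount. Insig1 stood at -0.0488 and Insig2 at -0.0264 with median scaling, Hmgcs1 at 0.0081 with quantile normalization, Insig1 at -0.0122 with normexp and quantile normalization, and Npc1 at 0.0382 with normexp and the 75th percentile. With the mean of probes, Ggps1 stood at -0.0072, Insig2 at -0.11 and Stard4 at 0.0790. With 1 sample left out, Hmgcs1 ran from -0.0631 to 0.0152, Mvk from -0.24 to 0.0232, Ggps1 from -0.0843 to 0.22, Dhcr7 from -0.10 to 0.39, Insig1 from -0.0864 to 0.0914, Insig2 from -0.0064 to 0.0562 and Npc1 from -0.0534 to 0.0464. The cause of the other turns was not tested.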

Other observations

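The authors' deposited table gives unscaled ratios of GKA over control. In the authors' deposited table, 22 of the 30 sterol genes had a ratio below 1 and 8 above 1, with a median of 0.814, beside 0.841 over all probes and 78.8% of all ratios below 1. The highest of the 30 in the authors' deposited table were Pmvk and Tm7sf2, both at 1.20, and Sqle at 1.18, and the lowest were Fdps at 0.508, Srebf2 at 0.519 and Abca1 at 0.560.

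Counts for markers of other cells that an islet preparation can hold rest on 1 or 2 called genes a list, beside 17.1% of all genes called in either direction. Of 3 acinar markers tested out of 10 listed, 1 was higher with GKA, Bhlha15 (1.37 ± 0.12, adjusted p = 0.00588 in limma). Of 7 duct markers, Spp1 was higher (2.26 ± 0.29) and Krt7 lower (-0.79 ± 0.14). Of 8 endothelial markers, Cdh5 was higher (0.63 ± 0.14) and Emcn lower (-0.76 ± 0.14). Of 8 fibroblast and stellate markers, 0 were higher and Col1a2 was lower (-0.87 ± 0.13).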
